A study of Mus musculus with 3 samples.

Results

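CD8 T cells from mouse tumours were compared between 1 library labelled homo and 1 library labelled PBS. The cells were chosen by their transcripts: a barcode entered with at least 500 genes, at least 1000 unique molecular identifiers (UMIs, counted transcripts) and under 10% mitochondrial UMIs. It also needed at least 1 UMI of Cd3d, Cd3e or Cd3g, at least 1 of Cd8a or Cd8b1, and none of Cd4 or Foxp3. This gate kept 7621 PBS and 6920 homo barcodes, 14541 of the 18879 deposited in both libraries and of the 27340 in the series' 3 libraries. The tumours were MC38, a mouse colon carcinoma line, isolated at day 15 after 5 days of treatment. Their cells were dissociated, sorted for CD3 and run on a 10x Genomics Chromium 3′ kit, which counts one end of each transcript. PBS is the buffer control. The labels do not say what homo stands for, and give no strain, age, sex or number of pooled animals. The series title names LAG3-directed interleukin-2 (IL-2); LAG3 restrains activated T cells, and the pair sets treated against untreated tumours.

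CD8 T cells recognise peptides on MHC class I through the T cell receptor and kill with granzymes, proteases that enter the target through pores of perforin. IL-2 binds a receptor of Il2ra, Il2rb and Il2rg and signals through JAK1, JAK3 and STAT5, which induces survival genes and its own feedback inhibitors, the SOCS proteins and CISH. In tumours, long exposure to antigen leads to exhaustion, a state with inhibitory receptors such as PD-1 (Pdcd1), TIM-3 (Havcr2) and LAG3 and with the transcription factor TOX.

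The gated cells held 45232759 UMIs in PBS and 56671351 in homo, with medians of 5216 and 7092 UMIs and 1966 and 2346 genes per cell. Both CD8 genes were detected in 92.6% of the gated PBS cells and 93.2% of the gated homo cells. The gate took 76.1% of PBS barcodes of sufficient quality and 88.9% of homo barcodes. Mitochondrial UMIs exceeded the limit in 0.251% of deposited PBS barcodes and 4.07% of homo barcodes, and the median mitochondrial share of the gated cells was 0.334% and 0.564%. The libraries shared 105 barcode sequences, 59 of them gated in both. Macrophage markers summed to 15.3 CPM (counts per 1000000 UMIs) in PBS and 3.05 in homo, B cell markers to 3.18 and 2.63, tumour epithelium markers to 4.55 and 1.59 and gamma delta T cell markers to 21 and 62.3. Natural killer cell markers summed to 499 and 578 CPM, mostly Klre1 and Fcer1g, with Ncr1 at 0.0442 and 0.159. Dendritic cell markers summed to 258 and 312 CPM, of which Cst3 gave 234 and 309 and Flt3 0.332 and 0.141. Regulatory T cell markers, several of which activated CD8 cells also express, summed to 568 and 463 CPM, with Foxp3 at 0 by the gate. With 1 library on each side there is no replicate check and no test, so each ratio carries an exact 95% interval for counting error only. Animal, digest and library preparation cannot be told apart from treatment here.

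Of 32285 genes, 7874 reached 10 CPM in at least 1 library and were compared. At least 2-fold higher in homo were 55 genes (0.699%), and at least 2-fold lower were 125 (1.59%). Scaled by TMM factors the counts were 71 and 104 of 7869 genes. Scaled to totals without receptor, mitochondrial and ribosomal protein genes they were 86 and 121 of 8610 genes. At the smaller limit of 1.5-fold, 3.1% were higher and 4.64% lower. The median log2 ratio of homo over PBS was -0.05, with quartiles at -0.21 and 0.13, and 92.3% of genes lay within 1.5-fold. T cell receptor genes, 54 of the 7874 compared, made up 16 of the 55 and 21 of the 125. Of the 457 genes whose higher library lay just inside the limit, at 10 to 12 CPM, 8 were 2-fold higher and 18 lower, and of the 551 just outside, at 8 to 10 CPM, 8 were higher and 12 lower. Without receptor, mitochondrial, ribosomal protein and unnamed genes, 29 were higher and 99 lower among 7460.

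**Figure D1:**
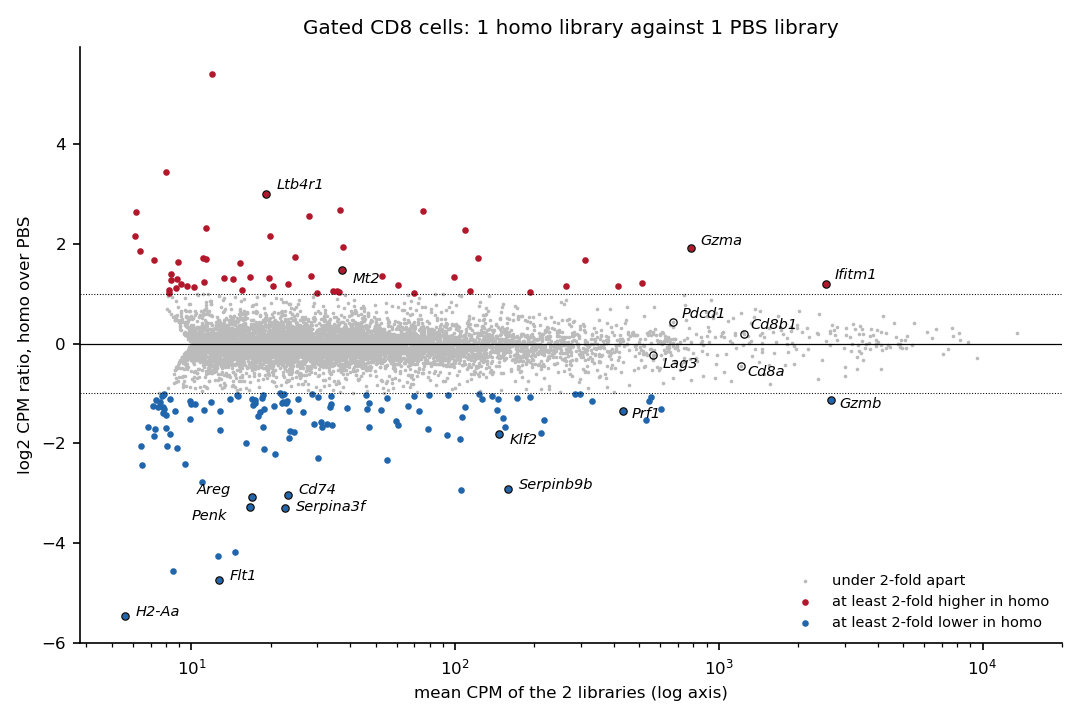
Each point is 1 of the 7874 compared genes in gated CD8 cells, with its mean CPM of the homo and PBS libraries (log axis) against the log2 CPM ratio of homo over PBS; dotted lines mark 2-fold. Gzma and Ifitm1 lie above the upper line at high levels and Gzmb and Prf1 below the lower line, while Lag3, Pdcd1, Cd8a and Cd8b1 lie between the lines.

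Granzymes did not move together. Gzma, granzyme A, was 329 CPM in PBS and 1244 in homo, a log2 ratio of 1.92 (95% interval 1.89 to 1.94). Gzmc was also higher, 728 CPM in PBS and 1070 in homo, a log2 ratio of 0.56. Gzmb, granzyme B, was 3657 CPM in PBS and 1663 in homo, a log2 ratio of -1.14. Perforin (Prf1) was 620 CPM in PBS and 244 in homo, a log2 ratio of -1.35. These genes serve the same killing granule, and Gzma and Gzmb lay past 2-fold on opposite sides. Nkg7, a granule membrane protein, had a log2 ratio of -0.66, and Gzmd, Gzme and Gzmf had -0.66, -0.47 and -0.51. Gzmg was -2.29 but 2.57% of PBS cells and 2.67% of homo cells held it, and among cells of 3000 to 10000 UMIs its ratio was -0.36. Of 16 compared granzyme and granule genes, 3 were above 0 (4 under each of the 3 other scalings, which shifted every ratio up by 0.05 to 0.06) and the median was -0.43. Reads of the neighbouring, near-identical genes Gzmc to Gzmg may be split by the counting, so their single values are uncertain.

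The cells that held Gzma were also more numerous. After each cell was thinned to 2000 UMIs, which left 7264 PBS and 6515 homo cells (357 and 405 shallower cells were left out), 11.7% of PBS cells (interval 11 to 12.5%) and 19.8% of homo cells (18.8 to 20.8%) had a Gzma UMI. Those cells held a mean of 6.27 Gzma UMIs in PBS and 10.8 in homo. Unthinned, the shares were 15.3% and 25.9%. In Foxp3-positive, CD8-negative T cells, which should lack Gzma, the thinned shares were 0.413% of 727 PBS cells and 1.85% of 108 homo cells, at median depths of 3428 and 3528 UMIs against 5346 and 7387 in the CD8 gate. Gzma sat in few cells: the tenth of cells richest in it held 97.7% of its thinned UMIs in PBS and 91.1% in homo. Gzmb was found in 81.0% of PBS cells and 62.7% of homo cells, with 8.71 and 4.53 UMIs in each positive cell. In the Foxp3-positive cells the Gzmb shares were 89.1% and 79.6%, with 15.6 and 7.34 UMIs in each positive cell. Cells with Gzma and no Gzmb UMI made up 0.936% of PBS and 3.99% of homo cells, and cells with neither made up 18.0% and 33.3%. Perforin was detected in 44.8% and 29.3% of the thinned cells, and in 9.22% and 10.2% of the Foxp3-positive cells. Unthinned cells with a UMI of Mki67, Top2a, Birc5, Ube2c or Ccnb2 were also left out. This kept 3125 of 6920 homo and 5507 of 7621 PBS cells, with medians of 5611 and 4712 UMIs. Among the kept cells the Gzma ratio fell to 1.17 on the log2 scale and the Gzmb ratio was -1.36.

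Several serpins, a family of protease inhibitors, were lower. Serpinb9, which blocks granzyme B, was 323 CPM in PBS and 112 in homo, a log2 ratio of -1.53. Its neighbour Serpinb9b was 280 and 37.2 CPM, a log2 ratio of -2.91 (-2.98 to -2.84). Serpinb9b sat in few cells: the tenth of PBS cells richest in it held 87.8% of its thinned UMIs. Serpina3f, a serine protease inhibitor, was 41.3 and 4.18 CPM, a log2 ratio of -3.30, and Serpina3g was 236 and 74.0 CPM, a log2 ratio of -1.67. Serpinb6a went the other way, from 125 to 211 CPM, a log2 ratio of 0.76. Among 11 compared serpins and protease inhibitors, 4 were at least 2-fold lower, none 2-fold higher, and the median was -0.39. Both pairs are neighbours in the genome with related sequences, so reads could be shared within a pair.

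Signalling downstream of IL-2 was described by the receptor genes and by targets of STAT5. The receptors differed little: Il2ra was 73.4 CPM in PBS and 61.7 in homo, Il2rb 852 and 947, and Il2rg 833 and 645, log2 ratios of -0.25, 0.15 and -0.37. Il18r1, a receptor chain for interleukin-18, was 113 and 188 CPM, a log2 ratio of 0.73. Il12rb2, a chain of the interleukin-12 receptor, was 220 and 139 CPM, a log2 ratio of -0.67. Of 20 compared receptors and JAK-STAT genes, 1 was at least 1.5-fold higher and 1 lower, with a median of -0.11.

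STAT5 targets and feedback genes were lower as a list. Of 17 compared, 11 were at least 1.5-fold lower, none was 1.5-fold higher, and the median was -0.81, against -0.05 for all genes. Cish, a feedback inhibitor of the IL-2 receptor, was 155 CPM in PBS and 64.0 in homo, a log2 ratio of -1.27. It was detected in 26.4% and 12% of thinned cells, and in 41.8% and 24.1% of the Foxp3-positive cells. Socs3 was 37.8 and 11.1 CPM, a log2 ratio of -1.77, and Socs1 165 and 84.7 CPM, -0.96. Bcl2, a survival factor, was 207 and 81.6 CPM, a log2 ratio of -1.34. It was found in 30.3% of thinned PBS cells and 15.7% of homo cells, against 0.825% and 0.926% in the Foxp3-positive cells. Myc was 61.9 and 30.3 CPM, Ccnd2 127 and 67.7 CPM and Pim1 131 and 74.9 CPM. Gfi1 and Prdm1 had log2 ratios of 0.36 and 0.11.

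STAT dimers bind the element TTCNNNGAA, where N is any base. Socs3 and Serpina3f are shown because both were over 3-fold lower and each holds this element within 250 bases upstream of its RefSeq start; the match is in capitals and the strand is the gene's. The windows lie at chr11:117969367-117969616, minus strand, and chr12:104214294-104214543, plus strand, in GRCm38.p6, which is not the build named in the submitters' notes.
Socs3: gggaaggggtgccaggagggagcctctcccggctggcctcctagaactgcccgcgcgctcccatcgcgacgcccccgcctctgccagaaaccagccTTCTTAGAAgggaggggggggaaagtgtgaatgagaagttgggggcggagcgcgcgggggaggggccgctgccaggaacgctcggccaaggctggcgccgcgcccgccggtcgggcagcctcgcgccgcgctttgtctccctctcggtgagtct
Serpina3f: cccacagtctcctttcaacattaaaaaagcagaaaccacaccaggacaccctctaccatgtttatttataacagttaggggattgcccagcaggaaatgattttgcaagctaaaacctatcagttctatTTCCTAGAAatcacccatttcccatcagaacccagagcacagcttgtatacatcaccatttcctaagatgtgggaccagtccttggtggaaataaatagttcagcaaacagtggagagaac
The element spans bases 154 to 146 before the Socs3 start and bases 121 to 113 before the Serpina3f start. Searched on both strands, it was in 7.02% of all 32851 RefSeq windows of this length and in 7.07% of the 6064 compared genes with a window. It was in 8 of 80 genes at least 2-fold lower and 1 of 26 at least 2-fold higher. A match describes the letters and does not show a bound site.

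Of the costimulatory receptors, 3 of the TNF receptor family were at least 2-fold lower. Tnfrsf9 (4-1BB) was 783 CPM in PBS and 271 in homo, Tnfrsf4 (OX40) 156 and 56.6, and Tnfrsf18 (GITR) 381 and 189, log2 ratios of -1.53, -1.47 and -1.01. The ratio of Tnfrsf18 was past 2-fold under 5 of 15 alternatives. Tnfrsf9 was found in 55.9% and 31.0% of thinned cells, and in 91.1% and 71.3% of the Foxp3-positive cells. Cd27, of the same family, had a log2 ratio of 0.06, and Cd28 and Icos had 0.18 and -0.30. Of 8 compared costimulatory receptors, 3 were above 0 and the median was -0.15.

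Genes that follow activation and stress had low ratios. Of 19 compared AP-1 and immediate early genes, 11 were at least 1.5-fold lower, none was higher by that much, and the median was -0.82. Fos was 224 CPM in PBS and 80.0 in homo, Junb 752 and 359, and Atf3 30.6 and 7.01, log2 ratios of -1.49, -1.07 and -2.12. Jun and Fosb were -0.44 and -0.22, and Btg2 was 0.03. Dusp1, a phosphatase that ends MAP kinase signals, was 330 and 95 CPM, a log2 ratio of -1.80. It was found in 36.4% and 13.6% of thinned cells, and in 68.0% and 50% of the Foxp3-positive cells. Among 23 compared NR4A, EGR and antigen-induced genes, 9 were at least 1.5-fold lower and the median was -0.48. Egr1 was -0.89, Nr4a1 -0.42, and Nfatc1 0.00 on the log2 scale.

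All 16 compared heat shock chaperones had ratios below 0 (15 under the other scalings, with Bag3 above), with a median of -0.36 and 5 at least 1.5-fold lower. Hspa1b was 165 CPM in PBS and 44.0 in homo, a log2 ratio of -1.91. Hspa1a was 121 and 37.0 CPM, -1.71, and Dnajb1, the partner of HSP70, was 200 and 92.0 CPM, -1.12. The constitutive Hspa8 was -0.33 and Hsp90ab1 was -0.17. The promoter of Hspa1b is shown with the heat shock element GAANNTTC in capitals, together with those of Dusp1 and Areg, whose cyclic AMP response element TGACGTNA is in capitals. Areg encodes amphiregulin, an epidermal growth factor receptor ligand, and was 30.3 and 3.60 CPM, a log2 ratio of -3.07. The windows lie at chr17:34959239-34959488, minus strand, at chr17:26508473-26508722, minus strand, and at chr5:91139349-91139598, plus strand.
Hspa1b: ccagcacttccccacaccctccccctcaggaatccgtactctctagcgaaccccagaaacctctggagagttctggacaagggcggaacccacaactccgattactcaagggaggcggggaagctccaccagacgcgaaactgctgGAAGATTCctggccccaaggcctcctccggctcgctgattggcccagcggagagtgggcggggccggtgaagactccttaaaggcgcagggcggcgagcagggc
Dusp1: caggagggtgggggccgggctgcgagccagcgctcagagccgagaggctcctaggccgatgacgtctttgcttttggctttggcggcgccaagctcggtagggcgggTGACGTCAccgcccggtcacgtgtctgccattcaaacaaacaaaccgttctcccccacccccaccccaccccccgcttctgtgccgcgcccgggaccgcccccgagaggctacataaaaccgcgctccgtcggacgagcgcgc
Areg: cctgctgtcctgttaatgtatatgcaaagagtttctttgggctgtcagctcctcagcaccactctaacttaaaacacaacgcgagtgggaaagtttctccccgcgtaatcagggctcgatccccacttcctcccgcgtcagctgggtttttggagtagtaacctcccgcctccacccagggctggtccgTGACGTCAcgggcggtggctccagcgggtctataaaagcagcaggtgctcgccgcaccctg
The windows of Hspa1a and Hspa1b share 247 of 250 bases, and the transcripts are near-identical, so the counts of the pair cannot be fully separated. The heat shock element was in 6.69% of all windows and in 4 of the 80 lower genes. The cyclic AMP element was in 2.52% of all windows, 5.54% of those of compared genes, 9 of the 80 lower genes and 0 of the 26 higher genes.

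Glycolysis genes were low as a group. All 17 compared ratios were below 0 (16 under the other scalings, with Slc2a3 above), with a median of -0.49, and 7 were at least 1.5-fold lower. Eno1, enolase, was 862 CPM in PBS and 345 in homo, a log2 ratio of -1.32. It was found in 68.4% and 42.8% of thinned cells, and in 57.4% and 36.1% of the Foxp3-positive cells. Gapdh was 1987 and 1132 CPM and Ldha 1396 and 832, log2 ratios of -0.81 and -0.75. Slc2a1, the glucose transporter GLUT1, was -0.71, and Slc2a3 was -0.05. Of 12 compared hypoxia-induced genes 1 was above 0, Ddit4 at 0.29, and the median was -0.48. Amino acid transporters Slc7a5, Slc3a2 and Slc1a5 had log2 ratios of -0.86, -0.61 and -0.59. Odc1, of polyamine synthesis and a MYC target, was 332 and 168 CPM. Mxd4, which competes with MYC for its partner MAX, was 29.6 and 75.8 CPM, a log2 ratio of 1.36, while its relative Mxd1 was 105 and 40.8 CPM, -1.36. Nuclear genes of the respiratory chain had a median of 0.03 over 25 members.

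**Figure D2:**
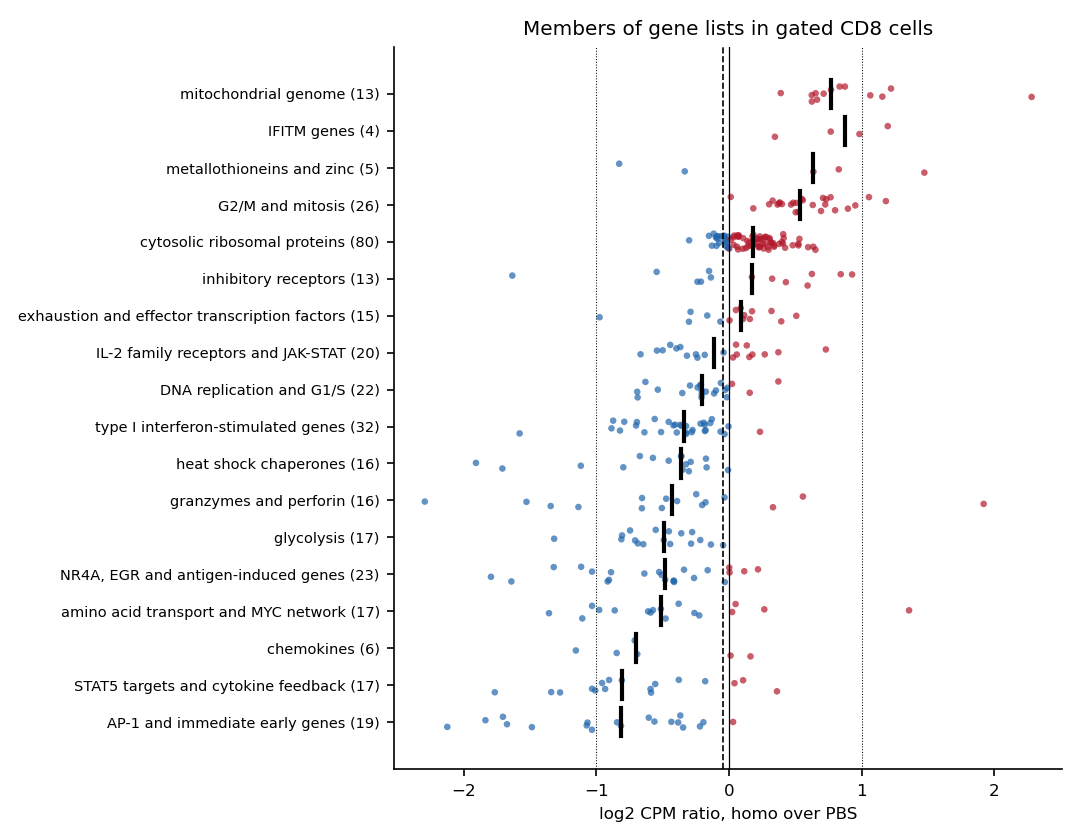
Each point is a compared member of a gene list (number of compared members in brackets), placed by its log2 CPM ratio of homo over PBS; black bars are list medians, the dashed line is the median of all genes and dotted lines are 2-fold. All compared members of the mitosis, IFITM and mitochondrial genome lists lie above 0, and all of the glycolysis and heat shock lists lie below 0, apart from Slc2a3 and Bag3 under other scalings.

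Mitosis genes were higher as a list, and DNA replication genes differed less. All 26 compared genes of G2 and mitosis were above 0, with a median of 0.53 and 11 at least 1.5-fold higher. Ccnb2, cyclin B2, was 37.3 CPM in PBS and 84.6 in homo, a log2 ratio of 1.18 (1.1 to 1.26). Ube2c, which helps degrade cyclins, was 74.0 and 154 CPM, a log2 ratio of 1.05. Mki67 was 63.8 and 98.8 CPM, 0.63, and Top2a 89.1 and 89.9 CPM, 0.01. Psrc1 and Knstrn, spindle proteins outside the list, had ratios of 1.86 and 1.19. Of 22 compared genes of DNA replication, 3 were above 0 (6 under the other scalings) and the median was -0.21. Of the 22, 19 lay within 1.5-fold and 3 were at least 1.5-fold lower, and the lower quartile of all genes was also -0.21. Mcm2 and Mcm4, of the replicative helicase, had ratios of -0.69 and -0.63, and Tk1 had 0.37. At 2000 UMIs, cells with a UMI of Mki67, Top2a, Birc5, Ube2c or Ccnb2 made up 16% of PBS and 31.8% of homo cells. Ube2c was in 5.30% and 17.2% of cells and Top2a in 8.12% and 8.55%, so the genes used to count such cells differed by unequal amounts. Cdk6, a kinase of early G1, was 172 and 79.9 CPM, a log2 ratio of -1.11. It was the lowest of 13 compared members in the list of cyclins and CDK inhibitors. Of these, 5 were above 0 and the median was -0.05. Without cells that held a UMI of Mki67, Top2a, Birc5, Ube2c or Ccnb2 at full depth, the mitosis list's median was -0.34. That filter selects on mitosis genes themselves and kept 3125 of 6920 homo and 5507 of 7621 PBS cells. A fall of this median was therefore built in.

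Interferon-induced genes did not share a direction. Ifitm1 was 1549 CPM in PBS and 3547 in homo, a log2 ratio of 1.20 (1.18 to 1.21), Ifitm2 494 and 976, 0.98, and Ifitm3 549 and 934, 0.77. These encode small membrane proteins that restrict virus entry. Ifitm1 was found in 32.5% of thinned PBS cells and 68.1% of homo cells, with 10.5 and 9.85 UMIs in each positive cell, so the difference lay in the share of cells. In the Foxp3-positive cells the shares were 1.38% and 7.41%. Per-cell means gave a log2 ratio of 0.94 for Ifitm1, under 2-fold. Among 32 compared type I interferon-stimulated genes, 1 was above 0 (3 under the other scalings) and 8 were at least 1.5-fold lower, with a median of -0.34. Oasl2 was 46.5 and 15.6 CPM, a log2 ratio of -1.58, and Irf7 and Isg15 were -0.87 and -0.79. Samhd1 was 0.23. Interferon-gamma-induced GTPases had a median of -0.34 over 14 members, and Ifng itself was 370 and 218 CPM, -0.77. Chemokines Ccl3, Ccl4 and Ccl5, made by activated CD8 cells, were -0.85, -0.69 and -0.71, and Xcl1 was 0.16.

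The metallothioneins Mt1 and Mt2, zinc-binding proteins, were higher. Mt1 was 182 CPM in PBS and 323 in homo, a log2 ratio of 0.83, and Mt2 19.8 and 54.8 CPM, 1.47. Mt1 was found in 16% and 26.3% of thinned cells and Mt2 in 2.82% and 7.11%. The list of metallothionein and zinc genes was mixed. Of its 5 compared members, 3 lay above 0 and 2 below, with a median of 0.64. The lowest member had a log2 ratio of -0.83, a fall past 1.5-fold. Mt1 and Mt2 are shown because these neighbours both were higher. The metal response element TGCACNC is in capitals, and the windows lie at chr8:94178839-94179088, plus strand, and at chr8:94172368-94172617, plus strand.
Mt1: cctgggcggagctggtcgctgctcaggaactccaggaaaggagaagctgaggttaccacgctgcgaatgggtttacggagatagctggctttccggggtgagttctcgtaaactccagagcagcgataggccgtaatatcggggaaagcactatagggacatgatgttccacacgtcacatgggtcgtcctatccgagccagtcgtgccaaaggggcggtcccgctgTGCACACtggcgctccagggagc
Mt2: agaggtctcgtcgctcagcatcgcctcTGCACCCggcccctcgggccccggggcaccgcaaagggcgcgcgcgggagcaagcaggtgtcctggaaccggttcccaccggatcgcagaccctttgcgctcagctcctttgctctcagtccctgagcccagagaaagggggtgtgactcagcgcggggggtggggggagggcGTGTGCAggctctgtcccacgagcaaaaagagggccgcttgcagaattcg
There was 1 match upstream of Mt1 and 2 upstream of Mt2, 1 of them on the opposite strand. The element was in 10.4% of all windows and 11.8% of those of compared genes. Mtf1, the zinc-sensing factor that binds it, was 20.4 and 16.1 CPM, a log2 ratio of -0.33.

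Exhaustion genes were mixed. Pdcd1 was 571 CPM in PBS and 768 in homo, a log2 ratio of 0.43, and was found in 55.8% and 67.8% of thinned cells. Lag3 was 611 and 518 CPM, -0.24, and its share of cells was 56.8% and 57.6%, with overlapping intervals. Havcr2 was 196 and 169 CPM, -0.21. Cd160, Cd200r1 and Cd244a, further inhibitory receptors, had ratios of 0.84, 0.93 and 0.62. Lilrb4a was 91.8 and 29.6 CPM, -1.63, and Entpd1 (CD39) was -0.55. Of 13 compared inhibitory receptors, 7 were above 0, 4 were at least 1.5-fold higher and 1 lower, and the median was 0.17. Tox was 143 and 203 CPM, 0.51, and Tcf7, of stem-like cells, was 37.2 and 44.7 CPM, 0.26. Bhlhe40 was 531 and 270 CPM, -0.98. Itga1, a collagen-binding integrin of resident T cells, was 60.1 and 119 CPM, 0.99. It was the highest of 12 compared integrin and residency genes, of which 5 were above 0, with a median of -0.02. The lowest was Zfp683, at 25.1 and 12.2 CPM, -1.03, which was past 2-fold under 8 of 15 alternatives.

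Genes of naive and recirculating T cells included several low ratios. Klf2, which keeps T cells in circulation, was 228 CPM in PBS and 64.7 in homo, a log2 ratio of -1.82. Ccr7, the lymph node homing receptor, was 49.4 and 16.1 CPM, -1.62, and Id3 was 19.7 and 5.95 CPM, -1.72. Lef1 was 0.56 and Il7r 0.27. The list of 16 compared stem-like and naive genes had a median of -0.10, with 2 members 2-fold lower.

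Several genes with the highest ratios belonged to no list. Ltb4r1, the receptor for the chemoattractant leukotriene B4, was 4.29 CPM in PBS and 34.1 in homo, a log2 ratio of 2.99 (2.78 to 3.21). It was detected in 0.716% of thinned PBS cells and 5.22% of homo cells, while the Foxp3-positive cells held it in 7.15% and 13.9%, so no background share can be read from them. Tbxa2r, the thromboxane A2 receptor, was 11.4 and 37.9 CPM, a log2 ratio of 1.73. Selenop, a selenium carrier, was 7.54 and 23 CPM, 1.61. Zc3h7a, a zinc finger protein, was 163 and 363 CPM, 1.15. The others of the 20 ranked highest were Slc16a11, Slc26a11, Cd200, Qrfp, Mirt1, Oprm1, H2-Oa, Bcl6 and B4galnt4, with log2 ratios between 1.28 and 1.71.

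Among the lowest, Flt1, a receptor for vascular endothelial growth factor, was 24.6 CPM in PBS and 0.918 in homo, a log2 ratio of -4.74. It was detected in 9.46% of PBS cells and 0.549% of homo cells. Penk, proenkephalin, was 30.2 and 3.09 CPM, -3.29, in 2.66% and 0.665% of cells. Klf4, Plk2, Cebpb, Upp1 and Nek6 had ratios between -2.77 and -1.76. H2-Aa, a class II chain of antigen-presenting cells, was 11 and 0.247 CPM, -5.47, but 32 PBS cells held all 496 of its UMIs, and among cells of 3000 to 10000 UMIs its ratio was -3.83. Cd74, the class II invariant chain, was -3.05, and -1.62 without the cells that held a marker of another cell type. Those markers include H2-Aa and H2-Ab1, so the filter itself selects on class II genes. Macrophage markers were also higher in the PBS gate, and their part in the class II values was not tested.

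**Figure D3:**
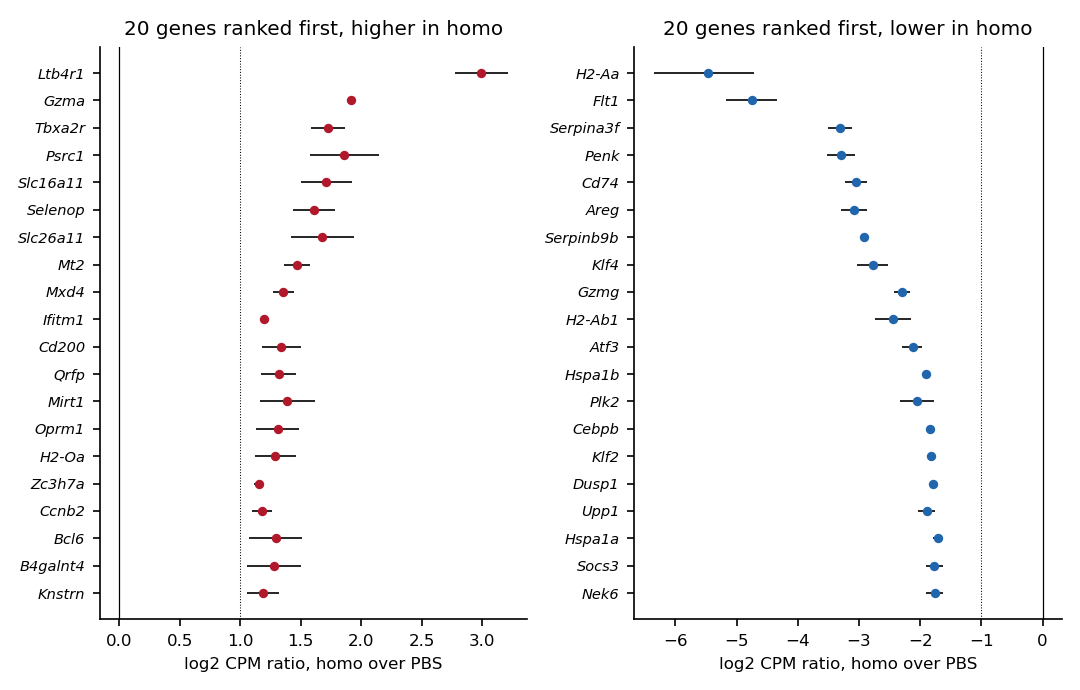
The 20 genes ranked highest (left) and lowest (right) by the interval end nearest to no difference, with the log2 CPM ratio of homo over PBS (points) and its 95% counting interval (bars; narrower than the point for abundant genes); dotted lines mark 2-fold. Ltb4r1 leads the higher genes at 2.99 and H2-Aa the lower genes at -5.47, with the widest interval.

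**Figure D4:**
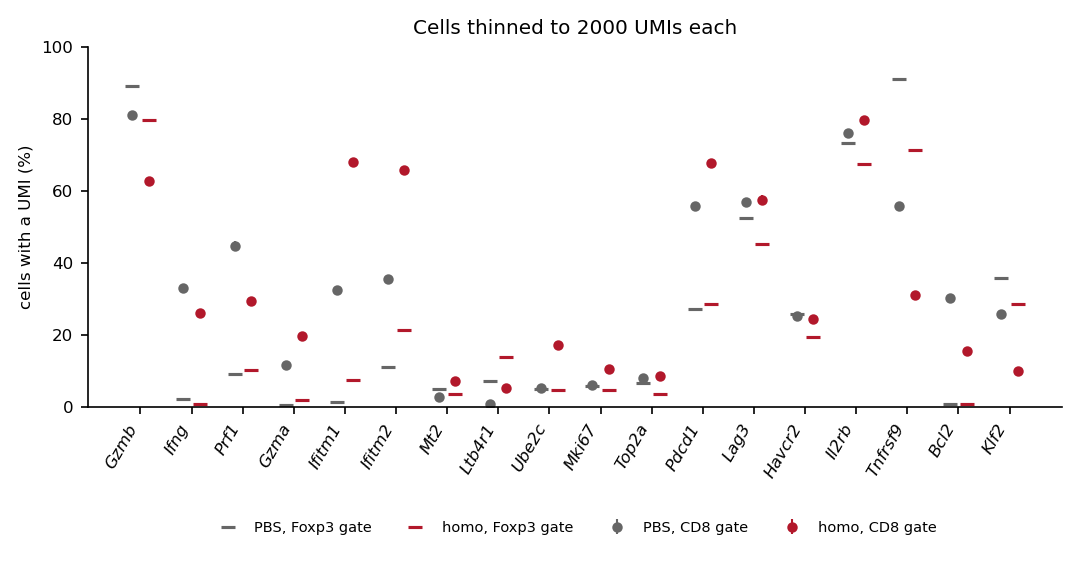
Percent of cells with a UMI of each gene after thinning each cell to 2000 UMIs, for 7264 PBS and 6515 homo cells of the CD8 gate (points, with 95% binomial intervals that are mostly within the point) and for Foxp3-positive, CD8-negative T cells (dashes). Ifitm1 and Ifitm2 differ most between the CD8 gates, Gzmb is lower and Gzma higher in homo, and Lag3 is at 56.8% and 57.6%.

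Mitochondrially encoded transcripts were higher in homo for all 13 genes, with a median log2 ratio of 0.77 and mt-Atp8 highest at 2.28. Their total was 3846 CPM in PBS and 6703 in homo. Of 80 compared cytosolic ribosomal proteins 59 were above 0 (69 under the other scalings), with a median of 0.18 and a range from -0.30 to 0.65. The libraries' difference in mitochondrial share and depth runs beside every result above, and its part was not tested. Limiting cells to under 5% mitochondrial UMIs kept 6868 of 6920 homo cells and 7618 of 7621 PBS cells, so it could change little. It gave 54 genes 2-fold higher, 53 of them among the 55, and 125 lower, the same 125 genes. Thinning gave 67 higher, 47 of them among the 55, and 121 lower, 103 of them among the 125.

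The libraries carried different T cell receptors. Each T cell clone uses 1 beta chain variable gene, and expanded clones raise its share. Cells were assigned to the Trbv gene with the most UMIs. Trbv16 led in 7.96% of PBS cells and 22.1% of homo cells, Trbv13-1 in 3.94% and 13.2%, and Trbv2 in 23.1% and 2.86%. Tcrg-V6, a gamma chain variable gene, was detected in 18 PBS and 702 homo cells, 10.1% of the homo gate. Of these homo cells, 700 held Cd8b1, 563 held the alpha chain constant gene Trac and 618 were led by Trbv16, while Trdc, the delta chain, was found in 8 homo and 30 PBS gated cells. Of the Trbv16 cells in homo, 40.4% held Tcrg-V6, against 1.56% of the others, and Trav3-3 gave 42.5% of their alpha chain variable UMIs. In PBS, Trbv16 cells were led by Trav12-2, with 45.0%.

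Chosen genes, many of them picked for their ratios in these same 2 libraries, were also compared within receptor groups. In 13 Trbv genes with at least 100 cells in each library, Gzma was higher in homo in all 13, with log2 ratios from 1.11 to 4.19. Gzmb was lower in all 13, from -1.79 to -0.81, and so were Cish, from -1.96 to -0.99, Bcl2, from -2.26 to -1.21, and Tnfrsf9, from -2.12 to -0.85. Ltb4r1 and Tbxa2r were higher in all 13. Ifitm1 ranged from 0.00 in Trbv20 to 2.05 in Trbv17. Serpinb9b was lower in 12 and ranged from -5.29 to 0.45. In PBS it was 644 CPM in Trbv2 cells and from 27.8 to 217 CPM in the other groups, and no alternative left out Trbv2 cells. Tcf7 was above 0 in 6 and below in 7, from -1.10 in Trbv3 to 2.78 in Trbv2. Lag3 was above 0 in 4 and below in 9. These groups come from the same 2 libraries and are not replicates, so a shared direction among them is not independent support. The part of receptor composition in the ratios was not tested. Leaving out every cell with a UMI of Trbv16 or Tcrg-V6 gave 56 genes 2-fold higher, 45 of them among the 55, and 118 lower, 107 of them among the 125.

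**Figure D5:**
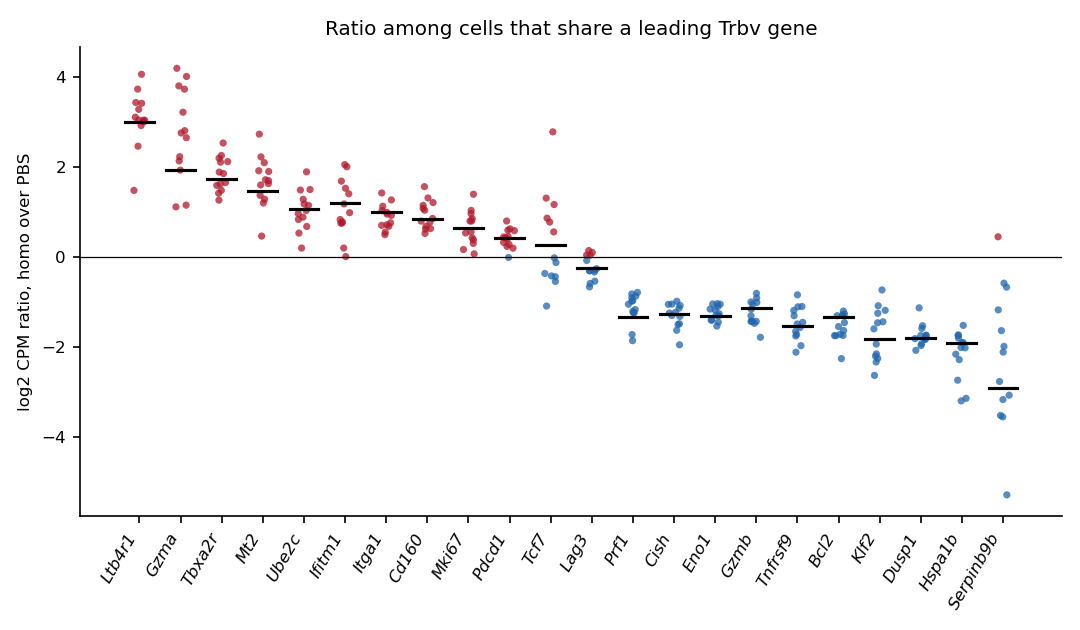
Log2 CPM ratio of homo over PBS for 22 genes, computed among the cells led by each of 13 Trbv genes (points) and among all gated cells (black bars). All points of Gzma lie above 0 and all of Gzmb, Cish and Bcl2 below 0, while those of Tcf7 lie on both sides.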

How the data were processed

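Single-cell RNA-seq was measured in CD3-sorted MC38 tumour cells, with 1 library per label (PBS, homo, and mix, which was not analysed here). The deposited values are raw UMI counts for each gene in each barcode. Per the file headers they came from Cell Ranger 7.1.0, while per the submitters' processing notes they came from version 2.1.1, with Seurat 4.1.0 and the build mm39. Barcodes were gated as described, UMIs were summed per gene and library and scaled to CPM, and genes with at least 10 CPM in either library were compared. Ratios carry exact conditional binomial 95% intervals and shares of cells exact Clopper-Pearson intervals, for counting error only. The ratio and its interval were tested on simulated independent Poisson counts, the model behind the interval. Such counts lack the clustering of UMIs in few cells, so that test cannot show how the intervals cover these data. No test was possible with 1 library per group. Named genes were the 20 highest and 20 lowest by the interval end nearest 1, leaving out genes of the T cell receptor, immunoglobulins, haemoglobin, ribosome and mitochondrial genome, sex-linked genes and unnamed models, plus up to 8 members of each gene list and fixed ones such as Lag3 and Pdcd1. The gate, members and lists were chosen with earlier results of these data known. No doublets were removed in the comparison; removal by Scrublet score was an alternative, as were other scalings (TMM of edgeR 4.0.16 among them), minima, depths and gates. Thinning drew 2000 UMIs per cell with seed 1. The receptor groups and the alternatives without Trbv16 or Tcrg-V6 cells and without shared barcodes were chosen after seeing the data. Promoter windows are RefSeq's, in GRCm38.p6. Python 3.11.15, numpy 2.4.6, scipy 1.17.1, pandas 2.3.3, scanpy 1.11.5 and R 4.3.3 were used.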

Additional observations from a re-analysis of the deposited data

How the results depend on the processing

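With 1 library on each side, differences between animals or preparations could not be measured, and low genes are limited by depth: a 10 CPM minimum corresponds to few UMIs in single cells. Of 15 alternatives, 12 gave a number of genes at least 2-fold higher within 1.5 times the 55 reported, and 13 did so for the 125 lower. The number of genes compared changed with the setting. A minimum of 50 CPM gave 18 higher and 45 lower of 3029 genes. No minimum gave 978 and 1562 of the 17620 genes with a UMI in both libraries. Totals without receptor, mitochondrial and ribosomal protein genes gave 86 higher of 8610. Without cells holding a mitosis gene UMI, which kept 3125 homo and 5507 PBS cells, 46 of the 55 and 100 of the 125 were still called. Without cells holding a marker of another cell type, which kept 4406 homo and 6033 PBS cells, 49 and 103 were. Those markers include Fcer1g, found in 26.9% of gated homo and 15.3% of gated PBS cells, so this filter also removes CD8 cells. The other scalings moved the median of all genes by under 0.1 on the log2 scale. No named gene's call reversed. Among list medians, that of the mitosis genes was 0.53 and became -0.34 without cells holding a mitosis gene UMI. This filter selects on mitosis genes, so a fall was built in and does not measure dependence on processing. The medians of the inhibitory receptors (lowest -0.14), stem-like genes (highest 0.16), costimulatory receptors (highest 0.03), chemokine receptors (lowest -0.13), RGS regulators (lowest -0.22), T cell receptor signalling (highest 0.02), metallothioneins (lowest -0.13), effector cytokines (highest 0.05), the respiratory chain (lowest -0.09), integrins (highest 0.04), cyclins and CDK inhibitors (highest 0.0085), NRF2 targets (highest 0.02), quiescence genes (highest 0.02), exhaustion transcription factors (lowest -0.0037) and actin genes (lowest -0.07) changed sign under at least 1 alternative; the cause was not tested. The Gzma ratio ranged from 1.17 to 1.99, that of Gzmb from -1.49 to -1.08 and that of Tcf7 from 0.24 to 0.76. No paired analysis was possible because each group has 1 library.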

Other observations

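Neighbouring genes with related functions moved together in several places. Of 7341 pairs of compared genes that follow each other in the RefSeq annotation, 9 had both genes at least 2-fold apart in the same direction and 1 in opposite directions. Besides the serpin, heat shock and class II pairs, further pairs are given here, chosen after their values were seen. The related receptors Lilr4b and Lilrb4a had log2 ratios of -1.05 and -1.63. The membrane proteins Ms4a4a and Ms4a4c had -1.32 and -1.01, and Tnfrsf4 and Tnfrsf18 had -1.47 and -1.01. Sdf4, next to Tnfrsf4, had -1.15, and Myo16 and Irs2 had -1.24 and -1.51. The ratio of Lilr4b was past 2-fold under 11 of 15 alternatives, that of Ms4a4c under 4 and that of Irs2 under 14. Related neighbours can share reads, so some pairs may not be independent measurements.

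Of 8 compared killer lectin receptors, 1 was at least 2-fold higher. This was Klra3, at 6.65 CPM in PBS and 15.6 in homo, a log2 ratio of 1.23, which was 0.39 without cells holding Trbv16 or Tcrg-V6, while Klrd1 and Klrk1 had 0.13 and 0.23 and Klrc1 had -0.31. S100a4 and S100a10, calcium-binding proteins, had 0.61 and 0.55 and Anxa2, their partner at the membrane, had -0.41. Among chemokine receptors Ccr2 and Cxcr3 had 0.61 and 0.59, Cxcr6 0.16 and Ccr8 -0.54. The apoptosis gene Bbc3, which encodes the BCL2 antagonist PUMA, was 13.6 and 21.5 CPM, a log2 ratio of 0.66, and Bcl2l1 and Mcl1 had -0.93 and -0.56. Proteasome subunits had a median of -0.15 over 19 members, none past 1.5-fold. Cyp51, of sterol synthesis, and Insig1, a regulator of it, had -0.89 and -0.87. Their list of 15 compared members had a median of -0.26, and 10 of the 15 lay within 1.5-fold.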
